A study of Mus musculus with 10 samples.

Results

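The claudins, the cadherins and the desmosomal cadherins were read out of a bulk RNA-seq gene table of embryonic mouse pancreas. Members were taken by gene symbol: Cldn, Cdh, Dsc or Dsg followed directly by digits, with a letter allowed after the Dsg number. The rule found 55 of 54532 genes, namely 23 claudins, 23 cadherins and 9 desmosomal cadherins. It used no measured value, but members were chosen with earlier results of these data known. Enough reads for testing were present for 42 of them: 17 claudins, 22 cadherins and 3 desmosomal cadherins. The 10 libraries came from pooled pancreata of C57BL/6J background mice carrying a LacZ cassette in the Fgf9 locus, which encodes a secreted fibroblast growth factor. Controls were labelled Fgf9 +/+ and +/-, so a control pool can hold carriers of 1 cassette allele, and the other pools were labelled Fgf9 -/-. At E13.5 (embryonic day 13.5) there were 3 control pools of 12, 7 and 12 pancreata and 2 null-labelled pools of 7 and 6. At E14.5 there were 3 control pools of 8, 7 and 6 pancreata and 2 null-labelled pools of 4 and 3. The comparisons below ask which junction genes differed with the Fgf9 label at each stage, over both stages, and between the stages.

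Claudins are the membrane proteins that form the strands of tight junctions and set which ions pass between epithelial cells. Classical cadherins bind the same cadherin on a neighbouring cell and hold adherens junctions together through catenins on the inside of the cell. Desmogleins and desmocollins are the cadherins of desmosomes, which couple cells to the intermediate filaments. In the developing pancreas, E-cadherin and claudins mark the branching epithelium, whereas the mesenchyme, vessels and nerves around it carry other cadherins.

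Library totals ran from 17736769 to 22798257 counts, and the members took 0.181 to 0.245% of them. The 6 pancreas markers, Pdx1 among them at 50.2 to 85.9 CPM (counts per 1000000 reads, scaled by edgeR's TMM factors), were found in all 10 libraries. Fgf9 itself had 18.4, 11.3 and 16.2 CPM in the E13.5 control pools and 5.57 and 7.66 CPM in the null-labelled ones. At E14.5 it had 13.6, 8.76 and 6.96 CPM in controls and 11.7 and 6.14 CPM in the null-labelled pools, so its level overlapped between the labels at that stage. Which exons the cassette removes is not given in the labels. Pools numbered 1 stood apart in every group: 6 epithelial markers summed to 995, 1530 and 1500 CPM in E13.5 control pools 1, 2 and 3 and 1010 and 1250 CPM in the null-labelled ones. At E14.5 the sums were 1360, 1950 and 2040 CPM in controls and 1190 and 1900 CPM in the null-labelled pools. In whole-organ RNA, fewer cells of a type and less RNA per cell cannot be told apart.

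Upstream sequence was given for 32 of the 55 members in RefSeq's promoter table (GRCm38.p6). The 250 bases before each transcript start in that table, some of which lie inside the gene, were searched on both strands for CACCTG, the E-box that Snail and Zeb repressors are known to bind in epithelial genes. It was present in 17.2% of all 32851 windows and in 6 of the 42 member windows (14.3%). The members with it before at least 1 of their listed starts were Cldn4, Cldn6, Cldn7, Cldn14 and Cdh7. A pair of neighbouring claudin genes on chromosome 5 is shown because both were lowest in the same pools while only one of their windows holds the E-box, given in capitals. Cdh6 is shown because, of the members called between the labels by the test of group means, it alone had an entry. The windows are chr5:134946935-134947184 on the minus strand for Cldn4, chr5:134985964-134986213 on the plus strand for Cldn3 and chr15:13173676-13173925 on the minus strand for Cdh6. Each is printed 5′ to 3′.
Cldn4: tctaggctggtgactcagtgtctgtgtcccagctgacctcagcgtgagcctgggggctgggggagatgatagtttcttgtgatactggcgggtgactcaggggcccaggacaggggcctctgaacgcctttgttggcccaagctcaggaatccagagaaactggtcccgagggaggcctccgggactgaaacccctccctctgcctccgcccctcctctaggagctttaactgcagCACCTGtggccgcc
Cldn3: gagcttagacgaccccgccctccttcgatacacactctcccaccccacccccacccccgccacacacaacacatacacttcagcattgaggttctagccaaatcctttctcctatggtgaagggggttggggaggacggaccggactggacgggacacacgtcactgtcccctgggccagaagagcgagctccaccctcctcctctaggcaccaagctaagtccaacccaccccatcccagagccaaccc
Cdh6: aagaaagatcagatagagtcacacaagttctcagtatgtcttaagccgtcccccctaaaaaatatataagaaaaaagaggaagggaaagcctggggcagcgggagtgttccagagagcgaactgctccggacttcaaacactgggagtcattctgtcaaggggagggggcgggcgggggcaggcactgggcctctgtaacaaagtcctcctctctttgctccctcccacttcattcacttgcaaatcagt
The Cldn4 window held 1 E-box, starting 14 bases before the gene start, and the Cldn3 and Cdh6 windows held none. These matches describe the letters only and were not tested as binding sites.

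Compared per length of transcript, E-cadherin led the members. Mean levels over the 10 libraries were 396 TPM (transcripts per 1000000) for Cdh1, which encodes E-cadherin, 375 TPM for Cldn6, a claudin of embryonic epithelia, and 263 TPM for Cldn3. Cldn4 had 121 TPM and Cldn7 114 TPM, and both are claudins of simple epithelia. The next members came from several tissues. VE-cadherin of blood vessels, Cdh5, had 89.7 TPM, the ion-pore claudin Cldn10 had 88.1 TPM and Cdh11, a cadherin of mesenchyme, had 74.6 TPM. P-cadherin, Cdh3, had 71.9 TPM and the endothelial claudin Cldn5 53.4 TPM. Among the desmosomal cadherins, Dsg2 had 50.6 TPM, Dsc2 34.1 TPM and Dsc3 9.95 TPM. N-cadherin, Cdh2, had 23.9 TPM.

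**Figure D1:**
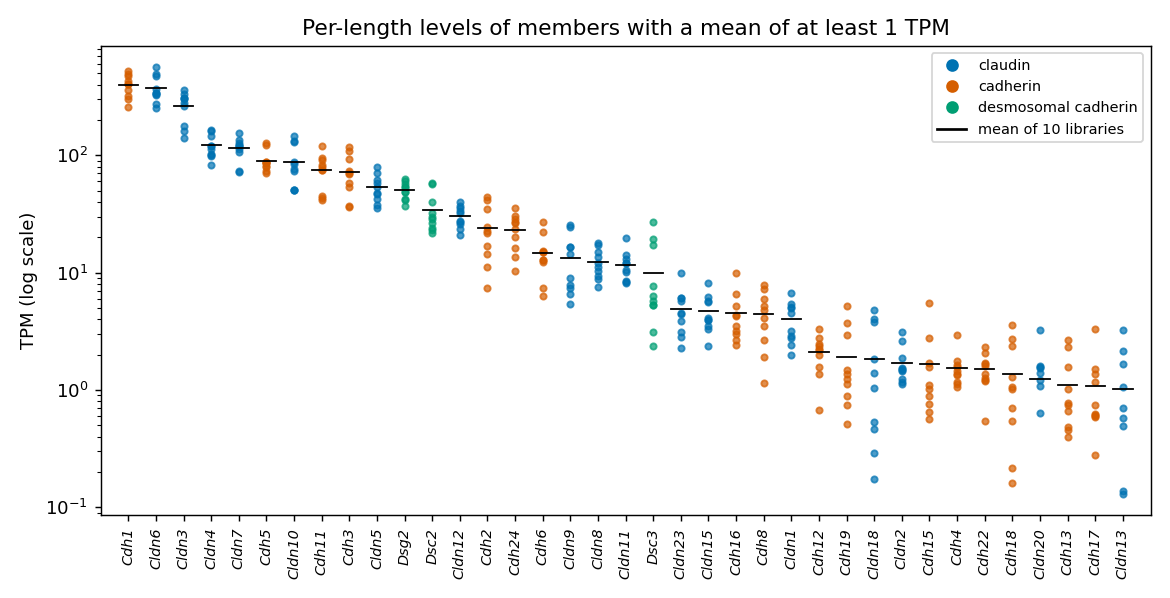
Level per length of the members with a mean of at least 1 TPM, in TPM on a log axis, with 1 point per library, a bar at the mean of the 10 libraries and colour by family. Cdh1, Cldn6 and Cldn3 lie at the top, with means of 396, 375 and 263 TPM, and desmosomal cadherins lie in the middle of the order, from Dsg2 at 50.6 to Dsc3 at 9.95 TPM.

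The 13 members that did not pass the filter were counted at most 16 times in any library. Cldn20 reached 16 counts, Cdh9 11, Dsg1c 8, and Cldn14, Dsg1a and Dsg3 6 each, while Dsg1b reached 3 and Cldn17, Cldn24, Dsc1 and Dsg4 reached 1. Cldn16 and Cldn22 were at 0 in all 10 libraries. The 0 of Cldn22 may not reflect its level, because its 995 exonic bases lie wholly within exons of Wwc2 on the opposite strand, where reads counted without strand are ambiguous, and the strand setting is not given. Dsc1, Dsg1a, Dsg1b, Dsg1c, Dsg3 and Dsg4 are the desmosomal cadherins of skin and hair, and none of them passed 8 counts in a library. Of the family, Dsc2, Dsc3 and Dsg2 could be tested.

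Between null-labelled and control pools, edgeR's test of group means found that the desmocollins Dsc3 and Dsc2 were higher at E13.5 and in the mean of both stages, and that Cdh6, Cdh13 and Cdh19 were higher in that mean. That test called no claudin, and the claudins called under other settings are given below. At E13.5, edgeR's quasi-likelihood test with Benjamini-Hochberg adjustment over 18898 genes called 2 of the 42 tested members higher and 0 lower at an adjusted p below 0.05. Of all genes tested, 0.132% were called higher and 0.175% lower. At E14.5 it called 0 members, against 0.111% of all genes, although 14 of the 42 members had an unadjusted p below 0.05, as did 8.54% of all genes. DESeq2 called 3 members at that stage, Dsc3, Dsc2 and Cdh17, and 1.63% of all genes, while limma-voom called 0 members and 0.116% of all genes. In the mean of both stages 5 members were called higher and 0 lower: Dsc3, Dsc2, Cdh13, Cdh19 and Cdh6. The share of all genes called was 1.46% higher and 0.418% lower. By family these were 2 of 3 desmosomal cadherins, 3 of 22 cadherins and 0 of 17 claudins, of which 2 had an unadjusted p below 0.05, as did 12% of all genes. DESeq2 called 10 members and 3.82% of all genes in the same comparison, and limma-voom called 5 members and 1.84% of all genes.

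Replicate numbers are shared between the labels within a stage, and same-numbered pools deviated together in all 4 pairs, so a fit that compares pools of the same number was also made. It called 8 members higher and 1 lower at E13.5, 4 higher and 1 lower at E14.5, and 12 higher and 1 lower in the mean of both stages. Of all genes, that fit called 2.07% higher and 0.926% lower at E13.5, 1.81% higher and 0.646% lower at E14.5, and 4.11% higher and 1.72% lower in the mean. Without any model, the null-labelled pools all lay above all controls for 17 of 42 members at E13.5 (40.5%), against 12.7% of all genes, and for 16 members at E14.5 (38.1%), against 11.9%. At both stages 10 members did so (23.8%), against 4.16% of all genes. The median log2 fold change in the mean of both stages was 0.56 for the 22 cadherins, 0.03 for the 17 claudins, 0.77 for the 3 desmosomal cadherins and -0.02 for all genes. The counts rest on the pools chosen: leaving out 1 library moved them from 0 to 3 at E13.5, from 0 to 3 at E14.5 and from 2 to 9 in the mean of both stages. At E13.5 the count was 0 without either null-labelled pool and 1 without any 1 of the 3 control pools of that stage. Without 1 of those control pools, 0.0746 to 0.133% of all genes were called at E13.5. At E14.5 the count was 3 without control pool 1, namely Dsc3, Cdh6 and Cdh18, with 1.38% of all genes called. For the mean it was 9 without E14.5 control pool 1, where the share of all genes called rose from 1.87 to 3.62%. It was 2 without E13.5 control pool 2 or 3 or E14.5 control pool 2 or 3, where that share fell to 0.879 to 0.999%. It was 3 without E13.5 control pool 1, with 1.19% of all genes called.

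**Figure D2:**
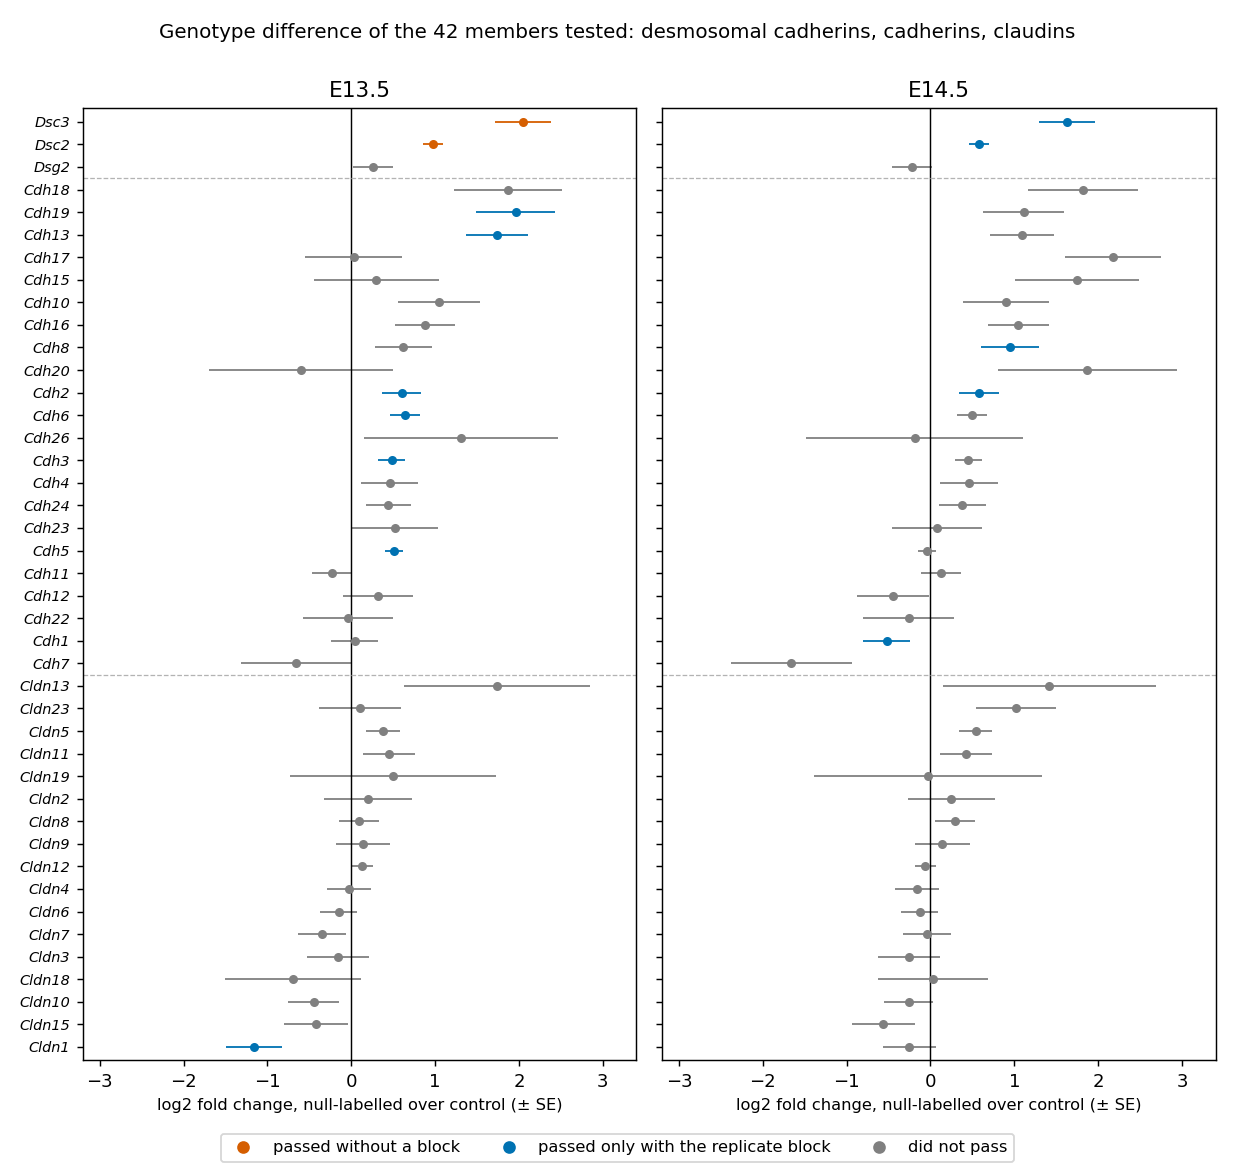
Log2 fold change of each tested member, null-labelled against control, at E13.5 (left) and E14.5 (right), from the fit of group means and with bars of 1 SE; colour gives whether the member passed an adjusted p of 0.05 in the fit of group means or only in the fit with the replicate block. Dsc3 lies at 2.05 and 1.63 and Dsc2 at 0.97 and 0.58, and most cadherins lie to the right of 0 at both stages while claudins lie on either side.

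Dsc3, desmocollin 3, is best known from stratified epithelia (chromosome 18, 19960930 to 20002351, GRCm38). It had 9.41, 9.29 and 8.9 CPM in the E13.5 control pools and 45 and 31.5 CPM in the null-labelled pools. At E14.5 it had 11.3, 5.25 and 6.46 CPM in controls and 32.1 and 15.5 CPM in null-labelled pools. Every null-labelled pool was above every control pool of its stage. The E13.5 means were 9.2 ± 0.27 (SD, n = 3) and 38.2 ± 9.6 CPM (SD, n = 2), a 4.15-fold difference (log2 2.05, SE 0.33, edgeR adjusted p = 0.026). The E14.5 log2 difference was 1.63 (SE 0.33, edgeR adjusted p = 0.086), and pairing pools by number gave 1.53 (edgeR adjusted p = 0.00026). In the mean of both stages Dsc3 was 3.58-fold higher (log2 1.84, SE 0.23, edgeR adjusted p = 0.0023). That call was kept in all 16 alternatives run, with log2 differences of 1.39 to 2.06, whereas the E13.5 call was lost on leaving out any 1 of the 5 E13.5 pools, at edgeR adjusted p of 0.068 to 0.26.

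Dsc2, the desmocollin of simple epithelia and heart, lies 28.3 kb from Dsc3 (chromosome 18, 20030633 to 20059554). The E13.5 control pools had 42.5, 49.3 and 49.1 CPM of it and the null-labelled pools 91.6 and 92.3 CPM. The E14.5 values were 42.6, 47.1 and 46.8 CPM in controls and 72.3 and 63.6 CPM in null-labelled pools. The groups did not overlap at either stage, and the control levels of both stages nearly coincided. Dsc2 was 1.96-fold higher at E13.5 (log2 0.97, SE 0.12, edgeR adjusted p = 0.0053) and 1.71-fold higher in the mean of both stages (log2 0.77, SE 0.09, edgeR adjusted p = 0.0011). At E14.5 the log2 difference was 0.58 (SE 0.12, edgeR adjusted p = 0.1), and pairing pools by number gave 0.6 (edgeR adjusted p = 0.012). The call for both stages was kept in all 16 alternatives, and the E13.5 call was lost without null-labelled pool 1 (edgeR adjusted p = 0.062) or pool 2 (0.068). Per length, the level of Dsc3 relative to that of Dsc2 was 0.216, 0.184 and 0.177 in the E13.5 controls and 0.479 and 0.333 in the null-labelled pools. At E14.5 that ratio was 0.26, 0.109 and 0.135 in controls and 0.434 and 0.238 in null-labelled pools, with control pool 1 above null-labelled pool 2.

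Dsg2, the desmoglein found in all desmosome-bearing tissues, lies 499 kb from Dsc2 on the same chromosome. It had 105, 130 and 125 CPM in the E13.5 controls and 137 and 150 CPM in the null-labelled pools, then 114, 182 and 201 CPM in the E14.5 controls and 107 and 178 CPM in the null-labelled pools. The groups were apart at E13.5 and interleaved at E14.5. Its log2 difference in the mean of both stages was 0.02 (SE 0.17, edgeR adjusted p = 0.98). Of its exonic bases, 330 overlap exons of Gm16090, and the strand setting of the counting is not given.

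**Figure D3:**
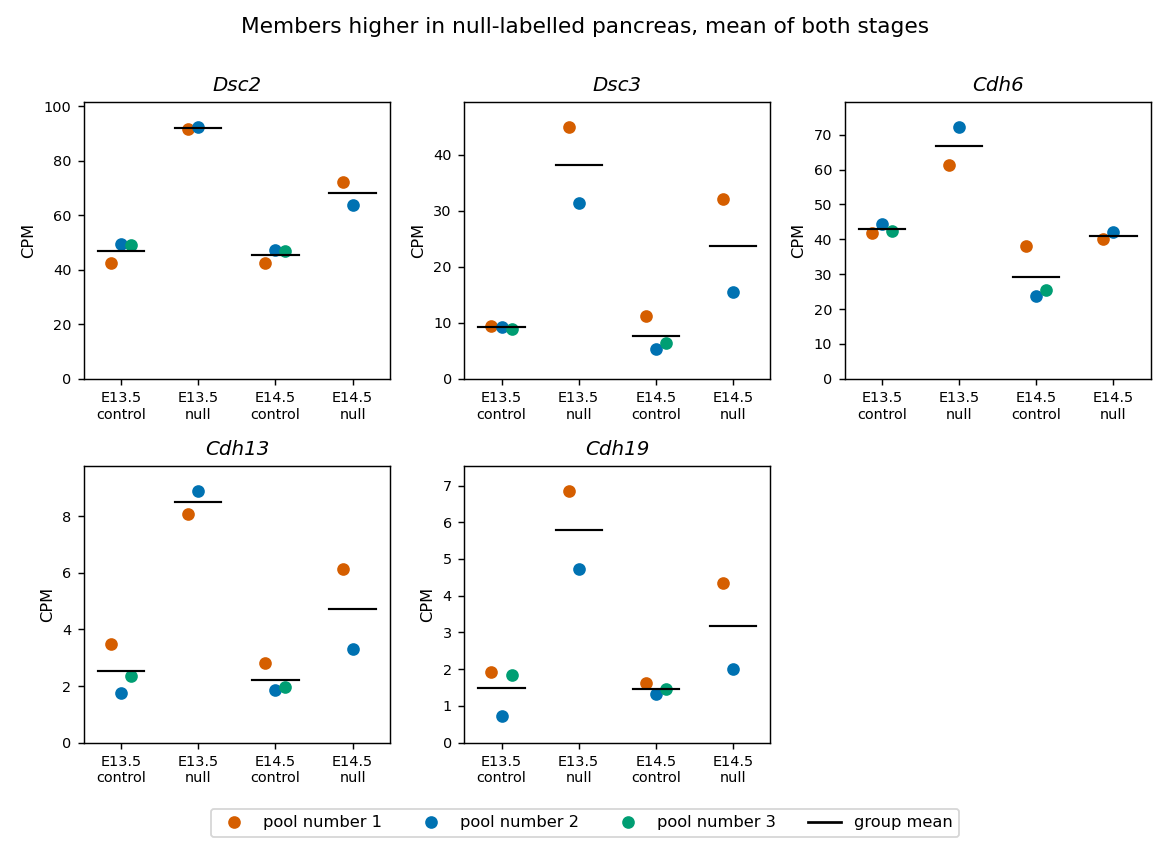
CPM per pool of Dsc3, Dsc2, Cdh6, Cdh13 and Cdh19 on linear axes from 0, with 1 point per library coloured by pool number and a bar at each group mean. Null-labelled pools of each stage lie above all control pools of that stage, for Dsc3 at 31.5 to 45 against 8.9 to 9.41 CPM at E13.5.

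Markers of other tissues were read beside the desmocollins. The stratified epithelium list, with keratins 5, 14, 15, 13 and 4 and Trp63, summed to 13.7 to 17.2 CPM in the E13.5 controls and 16.4 to 17 CPM in the null-labelled pools. The E14.5 sums were 9.58 to 17.7 CPM and 14.7 to 17.6 CPM, Krt13 was at 0 in 6 of 10 libraries, and edgeR called 0 of the 5 list genes tested in the mean of both stages (2 at an unadjusted p below 0.05). With the replicate block 1 was called, Krt14, at 3.21 to 4.95 against 8.22 to 8.62 CPM at E13.5 and 1.17 to 6.82 against 6.59 to 9.6 CPM at E14.5 (log2 0.88, edgeR adjusted p = 0.018). Krt4 had a log2 difference of -1.64 (SE 0.68, edgeR adjusted p = 0.34), so the summed level joins keratins of opposite sign. The sums of the pancreas, epithelium, mesothelium, macrophage and red cell lists overlapped between the labels at both stages. In the mesothelium list Msln was called higher (log2 2.51) and Lrrn4 lower (log2 -0.75) in the mean of both stages. The sums of some other lists did move with the label. Liver markers summed to 68.7 to 158 CPM in E13.5 controls and 239 to 318 CPM in null-labelled pools, and to 63.5 to 129 and 250 to 391 CPM at E14.5, with 5 of 6 genes called higher in the mean of both stages. Smooth muscle markers summed to 119 to 141 against 195 to 234 CPM and 113 to 162 against 234 to 480 CPM, with 4 of 6 called higher. Des of that list went the other way at E13.5, at 74.8 to 84.4 CPM in controls and 56 and 57.6 CPM in null-labelled pools. With the replicate block 4 of the 6 were called higher and 1 lower at E13.5. Mesenchyme markers summed to 5910 to 6590 against 7750 to 9190 CPM and 5400 to 8690 against 8900 to 13600 CPM, with 0 of 6 called by edgeR (4 at an unadjusted p below 0.05) and 4 called with the replicate block. Most of the mesenchyme sum was Col1a1, Col1a2 and Col3a1, with log2 differences of 0.75, 0.6 and 0.55 in the mean of both stages. Vim was at 0.25, Pdgfra at 0.07 and Pdgfrb at -0.03, so the rise of the sum is mainly that of collagens. The part of these lists in the levels of Dsc2 and Dsc3 was not tested.

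Among the cadherins, the members called in the mean of both stages were 2 type II cadherins and the atypical Cdh13. Cdh6, known as kidney cadherin and also made by neural crest cells (chromosome 15, 13028701 to 13173675), had 41.8, 44.5 and 42.5 CPM in the E13.5 controls and 61.2 and 72.2 CPM in the null-labelled pools. At E14.5 it had 38.1, 23.8 and 25.4 CPM in controls and 40 and 42.1 CPM in the null-labelled pools. The null-labelled pools were higher at both stages, and at E14.5 control pool 1 came close to them. The mean difference was 1.48-fold (log2 0.57, SE 0.13, edgeR adjusted p = 0.045). It was kept in 6 of 16 alternatives and lost on leaving out any 1 of 9 pools, all but E14.5 control pool 1, at edgeR adjusted p of 0.079 to 0.19.

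Cdh13, or T-cadherin, is held in the membrane by a lipid anchor, lacks the part that binds catenins and binds adiponectin (chromosome 8, 118283733 to 119324921). Its levels were 3.49, 1.76 and 2.34 CPM in the E13.5 controls and 8.09 and 8.91 CPM in the null-labelled pools. In the E14.5 pools they were 2.81, 1.85 and 1.95 CPM in controls and 6.14 and 3.3 CPM in null-labelled ones. No control pool reached a null-labelled pool of its stage. The difference was 2.67-fold in the mean of both stages (log2 1.42, SE 0.27, edgeR adjusted p = 0.018). At E13.5 it was log2 1.74 (SE 0.37, edgeR adjusted p = 0.095; with the replicate block 1.75, 0.013). At E14.5 it was log2 1.09 (SE 0.38, edgeR adjusted p = 0.38; with the replicate block 0.99, 0.23). Without both null-labelled pools numbered 1, the log2 difference in the mean of both stages was 1.19. The call for both stages was kept in 8 of 16 alternatives. It was lost without E13.5 control pool 2 or 3, either E13.5 null-labelled pool, E14.5 control pool 2 or 3, or E14.5 null-labelled pool 1, at edgeR adjusted p of 0.055 to 0.09.

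Cdh19, a type II cadherin known from Schwann cell precursors (chromosome 1, 110888326 to 110977584), had 1.91, 0.714 and 1.84 CPM in the E13.5 controls and 6.86 and 4.73 CPM in the null-labelled pools. It had 1.61, 1.33 and 1.45 CPM in the E14.5 controls and 4.35 and 2 CPM in the null-labelled pools. The groups stood apart at both stages, although at a few CPM. Cdh19 was 2.9-fold higher in the mean of both stages (log2 1.53, SE 0.33, edgeR adjusted p = 0.038). Pairing pools by number also called it at E13.5 (log2 2.24, edgeR adjusted p = 0.011). At E14.5 it was not called (log2 1.11, SE 0.48, edgeR adjusted p = 0.53; with the replicate block 1.04, 0.34). Without both null-labelled pools numbered 1, the log2 difference in the mean of both stages was 1.06. The call for both stages was kept in 6 of 16 alternatives. It was lost on leaving out any 1 of 8 pools, all but E14.5 control pool 1 and E14.5 null-labelled pool 2, at edgeR adjusted p of 0.058 to 0.2. Sox10, the transcription factor of neural crest and glia, moved the same way. It had 10.5, 11.9 and 22.2 CPM in the E13.5 controls, 24.3 and 28.5 CPM in the null-labelled pools, 13.8, 10.3 and 11.6 CPM in the E14.5 controls and 30.2 and 21.5 CPM in the null-labelled pools. The 6 neural and glial markers, none of them at 0 in any library, summed to 57.8 to 72.3 against 86.9 to 155 CPM at E13.5 and to 44.7 to 87.8 against 77.3 to 150 CPM at E14.5. Of these 6, 2 were called higher in the mean of both stages, and their part in the level of Cdh19 was not tested.

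Further cadherins missed the threshold with group means and passed it with the replicate block in the mean of both stages, among them the brain type II cadherins Cdh18 and Cdh8. DESeq2 also called Cdh18, Cdh8 and Cdh16, and limma-voom Cdh18. Cdh18 had 1.77, 0.81 and 0.994 CPM in the E13.5 controls and 5.03 and 3.7 CPM in the null-labelled pools, and 1.61, 0.404 and 0.278 CPM in the E14.5 controls and 3.74 and 1.75 CPM in the null-labelled pools. Its null-labelled pools were above the controls at both stages (log2 1.84, SE 0.46, edgeR adjusted p = 0.071 in the mean of both stages; with the replicate block 1.7, 0.0099). Cdh8 ranged from 3.69 to 12.5 CPM over the controls and from 7.79 to 18.5 CPM over the null-labelled pools, and its blocked log2 difference was 0.82 (edgeR adjusted p = 0.0034). Cdh24, which lies 3.43 Mb from Fgf9 on chromosome 14, ranged from 15 to 31 CPM over the controls and from 21.3 to 37.9 CPM over the null-labelled pools. Its blocked log2 difference was 0.38 (edgeR adjusted p = 0.037). Cdh16, the cadherin of kidney tubules, ranged from 2.75 to 6.29 CPM in controls and from 4.86 to 14 CPM in null-labelled pools, with a blocked log2 difference of 1.09 (edgeR adjusted p = 0.006).

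The classical type I cadherins differed among themselves. N-cadherin, which joins neural and mesenchymal cells and is also made by the pancreatic epithelium, had 84.3, 59.9 and 62 CPM of Cdh2 in the E13.5 controls and 109 and 99.6 CPM in the null-labelled pools. At E14.5 the controls had 45.6, 24.4 and 34.5 CPM and the null-labelled pools 60.8 and 43.6 CPM. The null-labelled pools were higher than the controls with the same number at both stages, and only at E14.5 did control pool 1 exceed a null-labelled pool. Its log2 difference was 0.59 in the mean of both stages (SE 0.17, edgeR adjusted p = 0.11), and pairing pools by number gave 0.58 (edgeR adjusted p = 0.00075), 0.55 at E13.5 (0.022) and 0.62 at E14.5 (0.018).

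P-cadherin had 93.9, 106 and 126 CPM of Cdh3 in the E13.5 controls and 147 and 155 CPM in the null-labelled pools, and 85, 66.9 and 61.1 CPM in the E14.5 controls and 106 and 88.5 CPM in the null-labelled pools. The null-labelled pools were above all controls at each stage. The log2 difference in the mean of both stages was 0.46 (SE 0.12, edgeR adjusted p = 0.07), and pairing pools by number gave 0.48 (edgeR adjusted p = 0.00038). The gene of E-cadherin, Cdh1, lies 46.1 kb from Cdh3 on chromosome 8. It had 414, 604 and 614 CPM in the E13.5 controls and 450 and 668 CPM in the null-labelled pools, and 544, 900 and 910 CPM in the E14.5 controls and 404 and 692 CPM in the null-labelled pools. Its groups overlapped at both stages (log2 0.04, SE 0.28, edgeR adjusted p = 1 at E13.5; -0.52, SE 0.28, 0.69 at E14.5). With the replicate block Cdh1 was lower in the null-labelled pools at E14.5 (log2 -0.4, edgeR adjusted p = 0.03).

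Per length, E-cadherin exceeded N-cadherin in every library. The ratio of Cdh1 to Cdh2 was 8.65, 17.8 and 17.5 in the E13.5 controls and 7.25 and 11.8 in the null-labelled pools. At E14.5 it was 21, 64.9 and 46.6 in the controls and 11.7 and 28 in the null-labelled pools. In each group the pool numbered 1 had the lowest ratio, and within each number the null-labelled pool was lower than the control.

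Cdh11, the cadherin of mesenchyme, was not called in any genotype comparison. The E13.5 controls had 319, 262 and 227 CPM of it and the null-labelled pools 261 and 200 CPM, and the E14.5 controls had 224, 153 and 155 CPM and the null-labelled pools 244 and 143 CPM. The groups overlapped at both stages, and the pool numbered 1 was the highest of each group. The log2 difference in the mean of both stages was -0.05 (SE 0.17, edgeR adjusted p = 0.95).

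The endothelial members were Cdh5, the VE-cadherin of vessel junctions, and Cldn5, the main claudin of endothelium. Cdh5 had 110, 119 and 105 CPM in the E13.5 controls and 163 and 153 CPM in the null-labelled pools, but 121, 123 and 128 CPM in the E14.5 controls and 125 and 115 CPM in the null-labelled pools. Its groups were apart at E13.5 and overlapped at E14.5. The log2 difference was 0.51 at E13.5 (SE 0.11, edgeR adjusted p = 0.1; with the replicate block 0.47, 0.016) and -0.04 at E14.5 (SE 0.11, edgeR adjusted p = 0.96). The test of the difference between these, -0.55 (SE 0.16), had an unadjusted p of 0.0046 and an edgeR adjusted p of 1. Cldn5 had 18.3, 21.5 and 25.7 CPM in the E13.5 controls, 26.9 and 30 CPM in the null-labelled pools, 25.3, 20.6 and 20.4 CPM in the E14.5 controls and 38.7 and 25.6 CPM in the null-labelled pools. Null-labelled pools were above all controls at both stages, though null-labelled pool 2 and control pool 1 lay close together at E14.5 (log2 0.46, SE 0.14, edgeR adjusted p = 0.16 in the mean of both stages; with the replicate block 0.49, 0.0078). The 6 endothelial markers summed to 312 to 351 CPM in the E13.5 controls and 414 to 478 CPM in the null-labelled pools, and to 324 to 358 and 378 to 443 CPM at E14.5. Of these markers 1 was called higher in the mean of both stages, and their part in Cdh5 and Cldn5 was not tested.

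Claudins of the epithelium overlapped between the labels in Cldn3, Cldn4, Cldn6 and Cldn7, and Cldn3, Cldn4 and Cldn7 were lowest in the pool numbered 1 of every group. Cldn3 had 53.6, 108 and 140 CPM in the E13.5 controls, 62.2 and 117 CPM in the null-labelled pools, 129, 156 and 135 CPM in the E14.5 controls and 77.2 and 156 CPM in the null-labelled pools. Cldn4, on the same chromosome 39.3 kb away, had 45.3, 86.8 and 91.2 CPM, then 56.7 and 88.9 CPM, at E13.5. It had 72.6, 77.1 and 82.9 CPM in controls and 62.4 and 76.8 CPM in null-labelled pools at E14.5. The other members that were lowest in the pool numbered 1 of all 4 groups were Cldn8, Cldn23, Cdh1, Cdh4 and Dsg2. With them these 8 members are 19% of the 42, against 12.7% of all genes tested, and the epithelial marker sums given above were lowest in the same pools.

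Cldn6 had 171, 266 and 300 CPM in the E13.5 controls, 192 and 251 CPM in the null-labelled pools, 195, 194 and 216 CPM in the E14.5 controls and 151 and 218 CPM in the null-labelled pools. Cldn7 had 42.5, 80.6 and 93.3 CPM and 43.8 and 69.6 CPM at E13.5, and 73.9, 96.5 and 92 CPM and 71.7 and 98.7 CPM at E14.5. The log2 differences in the mean of both stages were -0.21 for Cldn3, -0.09 for Cldn4, -0.14 for Cldn6 and -0.19 for Cldn7, with SE of 0.26, 0.19, 0.16 and 0.21 and edgeR adjusted p of 0.84, 0.91, 0.82 and 0.81. The opposite order was found for 9 members that were highest in the pool numbered 1 of every group, 21.4% of the 42 against 11.9% of all genes: Cdh2, Cdh7, Cdh11, Cdh12, Cdh18, Cdh19, Cdh24, Cldn1 and Dsc3.

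**Figure D4:**
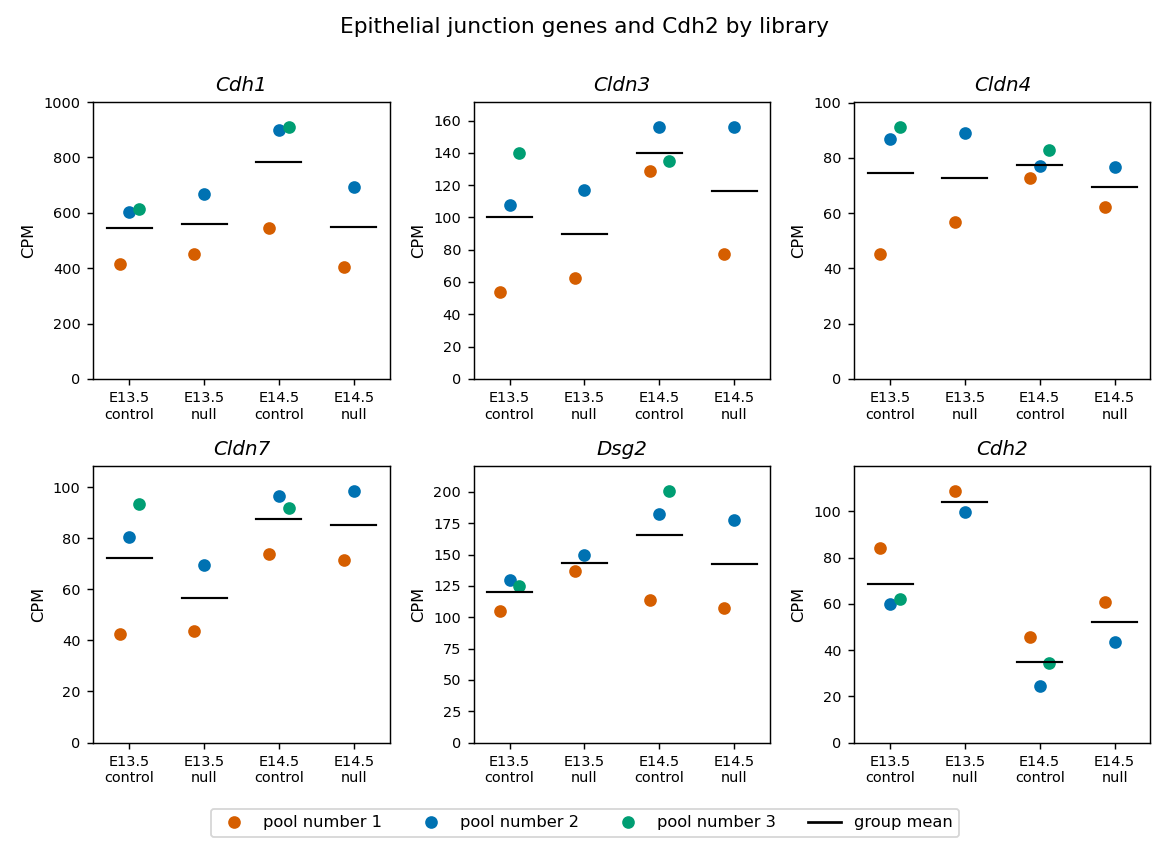
CPM per pool of epithelial members and of Cdh2 on linear axes from 0, with 1 point per library coloured by pool number and a bar at each group mean. For Cldn3, Cldn4, Cldn7 and Cdh1 the pool numbered 1 is the lowest of each group, at 53.6 CPM of Cldn3 against 108 and 140 CPM in the other E13.5 controls.

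Wholly lower values in the null-labelled pools were found for 1 member at each stage. Cldn1, a barrier claudin of many epithelia (chromosome 16, 26356642 to 26371841), was the only one whose null-labelled pools all lay below the controls at E13.5, where 10.9% of all genes did so. It had 9.73, 7.86 and 8.1 CPM in the controls and 4.12 and 3.53 CPM in the null-labelled pools at E13.5, and 8.18, 6.34 and 5.4 CPM and 7.59 and 3.65 CPM at E14.5. The groups were apart at E13.5 and overlapped at E14.5. At E13.5 the difference was 2.24-fold (log2 -1.16, SE 0.33, edgeR adjusted p = 0.26), and Cldn1 was called lower with the replicate block (log2 -1.2, edgeR adjusted p = 0.027). Cldn1 was also the 1 member that the block called lower in the mean of both stages (log2 -0.82, edgeR adjusted p = 0.02). Group means gave -0.7 there (SE 0.23, edgeR adjusted p = 0.19). Cdh7, a type II cadherin, was the only one below the controls at E14.5, where 11.8% of all genes were. It had 2.66, 1.73 and 2.34 CPM in the E14.5 controls and 1.23 and 0.2 CPM in the null-labelled pools, after 4.19, 2.14 and 2.63 CPM and 2.95 and 0.861 CPM at E13.5. The E14.5 difference was not called (log2 -1.66, SE 0.72, edgeR adjusted p = 0.54; with the replicate block -1.86, 0.14).

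For Cdh17 and Cdh15 a single pool, E14.5 null-labelled pool 1, held the highest value. Cdh17, the liver-intestine cadherin made by intestinal epithelium, had 2.05, 0.905 and 0.845 CPM in the E13.5 controls, 1.61 and 0.99 CPM in the null-labelled pools, 0.903, 0.519 and 1 CPM in the E14.5 controls and 5.08 and 2.3 CPM in the null-labelled pools. At E14.5 both null-labelled pools were above the controls (log2 2.18, SE 0.57, edgeR adjusted p = 0.18). The intestinal transcription factors Cdx1 and Cdx2 had 5.02 and 3.79 CPM in that same pool, and in the other 9 libraries Cdx1 reached at most 0.552 CPM and Cdx2 0.476 CPM. The 6 stomach and intestine markers summed to 112 to 190 CPM in the E14.5 controls and 128 to 193 CPM in the null-labelled pools, edgeR called 0 of the 4 tested in the mean of both stages (1 at an unadjusted p below 0.05), and Gkn1 was at 0 in 9 of 10 libraries. Most of that sum was Gata4, at 102 to 174 CPM over the 5 pools of that stage. Sox2, a transcription factor of foregut and stomach, was called higher with the replicate block in the mean of both stages (log2 1.91, edgeR adjusted p = 0.03). It was called at neither stage alone. Its levels were 0.524 to 0.978 CPM in the E13.5 controls and 2.04 and 3.05 CPM in the null-labelled pools. At E14.5 they were 0.111 to 0.953 CPM in the controls and 3.91 and 0.749 CPM in the null-labelled pools, so pool 2 lay within the controls. Cdh15, the M-cadherin of muscle precursors, had 6.14 CPM in E14.5 null-labelled pool 1 and 0.699 to 2.78 CPM in the other 9, with 2.78 CPM in E13.5 null-labelled pool 1. The 6 skeletal muscle markers summed to 178 and 23.9 CPM in E14.5 null-labelled pools 1 and 2, against 9.74 to 16.8 CPM in the E14.5 controls. At E13.5 they summed to 63.4 and 23.3 CPM in the null-labelled pools, against 13.1 to 18.4 CPM in the controls. Of the 6, 3 were called higher in the mean of both stages and 5 with the replicate block. Myog was at 0 in 1 library. The part of these markers in Cdh17 and Cdh15 was not tested.

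The other 15 tested members are given by their ranges. Cldn12, a claudin found in many tissues, ranged from 36.3 to 50.2 CPM over all 10 libraries. Cldn8 ranged from 5.36 to 15.2 CPM, Cldn11 from 4.75 to 11.1 CPM, Cldn15 from 1.51 to 7.21 CPM, Cldn23 from 1.26 to 6.89 CPM and Cldn2 from 1.29 to 3.89 CPM. Cdh4, or R-cadherin, ranged from 2.86 to 6.37 CPM, Cdh12 from 1.6 to 6.43 CPM, Cdh10 from 0.445 to 3.75 CPM, Cdh23 from 1.1 to 3.63 CPM and Cdh22 from 0.779 to 2.68 CPM. Cdh20, Cdh26, Cldn13 and Cldn19 did not exceed 1.34 CPM in any library. None of the 15 was called in a genotype comparison by edgeR's test of group means, with the replicate block or by DESeq2, and Cdh10 alone had an unadjusted p below 0.05 (0.017 in the mean of both stages, log2 0.97, SE 0.35).

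Between E13.5 and E14.5 in the control pools, no member was called by edgeR, against 1.12% of all genes, while 11 of 42 members had an unadjusted p below 0.05, as did 15.5% of all genes. DESeq2 called 4 members higher and 4 lower and 5.77% of all genes, and limma-voom called 0 members and 0.302% of all genes. The DESeq2 calls were Cldn8, Cldn10, Cldn15 and Cldn18, higher at E14.5, and Cdh2, Cdh3, Cdh6 and Cldn9, lower. The replicate block called Cdh1, Cldn8, Cldn10 and Cldn18 higher and Cdh2, Cdh3, Cdh6, Cdh11 and Cldn9 lower. It called 7.34% of all genes. Without a model, the pools of one stage lay wholly above those of the other for 11 members: 5 were higher at E14.5, 4 claudins and Cdh5, and 6 were lower, 5 cadherins and Cldn9. Of all genes, 9.93% lay wholly higher and 10.6% wholly lower. The count of calls rested on single pools, rising to 9 without E14.5 control pool 1, to 5 without E14.5 null-labelled pool 1 and to 4 without E14.5 null-labelled pool 2. The share of all genes called rose with it, to 6.45%, 2.37% and 2.35%.

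Cldn10, whose isoforms form channels for cations or anions and which is known from ducts and acini, had 39.1, 62.2 and 62 CPM in the E13.5 controls and 75.1, 142 and 145 CPM in the E14.5 controls. Cldn18, a claudin of stomach and lung, had 0.233, 1.52 and 0.745 CPM and then 2.06, 7.44 and 6.46 CPM. Neither gene's stages overlapped. In the null-labelled pools Cldn10 had 40.4 and 39.4 CPM at E13.5 and 75.1 and 127 CPM at E14.5, and Cldn18 had 0.643 and 0.387 CPM and then 2.85 and 7.99 CPM. The log2 differences were 1.15 for Cldn10 (SE 0.26, edgeR adjusted p = 0.057) and 2.66 for Cldn18 (SE 0.66, edgeR adjusted p = 0.068). Cldn9, which lies 137 bases from Cldn6 on chromosome 17, was in the other direction. It had 6.24, 11.4 and 7.36 CPM at E13.5 and 3.76, 3.23 and 4.06 CPM at E14.5 (log2 -1.18, SE 0.29, edgeR adjusted p = 0.069). The level per length of Cldn6 relative to Cldn9 was 22.9, 19.5 and 34.2 in the E13.5 controls and 43.5, 50.4 and 44.5 in the E14.5 controls.

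Among cadherins, the E14.5 controls had lower values of Cdh2 (log2 -0.98, SE 0.21, edgeR adjusted p = 0.052), Cdh3 (-0.61, SE 0.15, 0.065), Cdh6 (-0.56, SE 0.16, 0.11) and Cdh11 (-0.61, SE 0.21, 0.18), from the pools given above. None of these 4 cadherins overlapped between the stages in controls. Cdh1 had an opposite sign, with a log2 difference of 0.53 (SE 0.25, edgeR adjusted p = 0.34; with the replicate block 0.51, 0.0058), and its pools overlapped. The epithelial marker sums were 995 to 1530 CPM in the E13.5 controls and 1360 to 2040 CPM in the E14.5 controls, and their part in these differences was not tested. Without E14.5 control pool 1, the 9 members called were Cdh2, Cdh3, Cdh6, Cdh8 and Cdh11, all lower at E14.5, and Cldn8, Cldn10, Cldn18 and Dsg2, all higher.

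**Figure D5:**
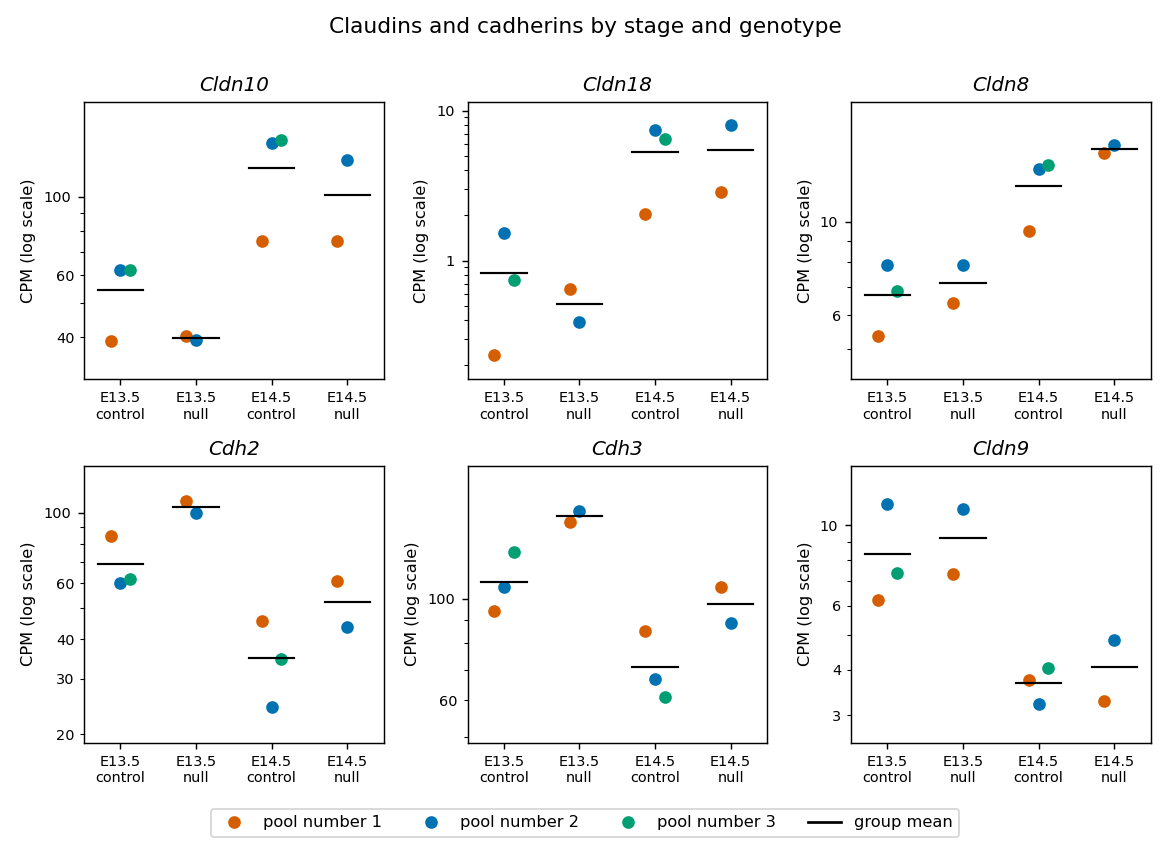
CPM per pool of claudins and cadherins by stage and genotype label, on log axes, with 1 point per library coloured by pool number and a bar at each group mean. Cldn10 and Cldn18 lie higher in the E14.5 than in the E13.5 controls, at 75.1 to 145 against 39.1 to 62.2 CPM for Cldn10, and Cldn9 lies lower.

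The genotype difference was not shown to differ between stages for any member: edgeR, DESeq2 and limma-voom each called 0, and 3 members had an unadjusted p below 0.05, namely Cdh5, Cdh17 and Dsc2, as did 2.4% of all genes. For Dsc2 the E14.5 difference was smaller by 0.39 on the log2 scale (SE 0.17, unadjusted p = 0.044, edgeR adjusted p = 1), and for Cdh17 it was larger by 2.15 (SE 0.82, unadjusted p = 0.023, edgeR adjusted p = 1). Of all genes edgeR and limma-voom called 0% in that test and DESeq2 0.00899%.

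The partners that cadherins and claudins bind inside the cell were read from a list with other proteins of these junctions. Of 32 listed, 30 were tested, among them catenins, plakophilins, desmoplakin (Dsp), plakoglobin (Jup) and the zonula occludens proteins. None was called at E13.5 or E14.5 by edgeR (1 and 2 at an unadjusted p below 0.05), and 1 was called in the mean of both stages: Ctnna2, the alpha-catenin of neurons, was higher (log2 1.06, SE 0.24, edgeR adjusted p = 0.047). With the replicate block Ctnna2 was also called at E13.5 (log2 1.04, edgeR adjusted p = 0.017). Their median log2 difference in the mean of both stages was -0.09, against -0.02 for all genes. Among 11 regulators known to switch epithelial against mesenchymal cadherins, 1 was called. Zeb1, which represses E-cadherin, had 117, 92 and 84.3 CPM in the E13.5 controls and 70 and 60.2 CPM in the null-labelled pools, and 92.7, 77 and 68.8 CPM in the E14.5 controls and 60.3 and 54 CPM in the null-labelled pools. The null-labelled pools were below all controls of their stage. Zeb1 was lower in the mean of both stages (log2 -0.53, SE 0.12, edgeR adjusted p = 0.045), with the replicate block also at E13.5 (adjusted p = 0.0012) and E14.5 (0.0065). The median of the 11 regulators was -0.16.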

How the data were processed

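Bulk poly(A) RNA-seq counts per gene, as deposited, were used for 10 pools of embryonic mouse pancreas in 4 groups. Per the labels' protocols, RNA was extracted with TriZol and made into libraries with a NEBNext Ultra II kit. The submitters' processing notes name TopHat, HTSeq, DESeq2 and mm10, with no versions. The strand setting is not given in the sources used here. Reads shared with overlapping or similar genes can therefore be misassigned.

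The tests were made with edgeR 4.0.16 (R 4.3.3): TMM scaling, a filter on low counts (filterByExpr, minimum count 10), 1 mean per group over all 10 libraries, and quasi-likelihood F tests. Benjamini-Hochberg adjustment ran over all 18898 genes tested, with a threshold of 0.05. SE was the log2 fold change divided by the square root of F. TPM used merged exon lengths of GENCODE release M21. Values are CPM scaled by TMM.

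Alternatives were DESeq2 1.42.0, limma-voom 3.58.1, a replicate block, DESeq2 size factors, no filter, leaving out libraries, and a fit of only the compared groups. Deviations from group means correlated between same-numbered pools of a stage, at 0.36 and 0.14 at E13.5 and 0.35 and 0.16 at E14.5. All were above the limit of 0.1. The 2 pairs of a stage are not independent, because its 2 null-labelled pools deviate by equal and opposite amounts. Control pools numbered 1 of different stages also correlated, at 0.3. The numbers were used as pairs for genotype in the fit with the replicate block, where control pool 3 of each stage has no partner. For the comparison between stages, the block instead paired same-numbered pools of E13.5 and E14.5 within each label. The labels do not say that a number marks a shared litter, and the blocked fit for genotype leaves 2 residual degrees of freedom. On simulated counts for the E13.5 comparison (18360 genes), the test recovered 47 of 100 genes set to a 2-fold change and 70 of 100 set to a 4-fold change. P-values measure the spread between pools of embryos, whose litters are not given. No replicate pair agreed within sampling noise.

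Values in every library are given for members called in any comparison by the test of group means, for 13 members of textbook standing in epithelium, endothelium, mesenchyme or desmosomes, and for up to 3 members per direction with the largest non-overlapping differences at a mean of at least 1 CPM. Values of Cdh8, Cdh15, Cdh16, Cdh24, Cldn9, Cldn10 and Cldn18 were added after they were seen. Members and lists were chosen with earlier results of these data known.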

Additional observations from a re-analysis of the deposited data

How the results depend on the processing

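None of the 5 called members changed direction under any alternative run. Among members not called, the replicate block turned small differences, such as Cldn3 at E13.5 from -0.16 to 0.16 and Cldn4 in the mean of both stages from -0.09 to 0.03 on the log2 scale. DESeq2 size factors in edgeR left every count of called members as it was. At E13.5 the count of 2 became 5 with DESeq2, 7 without the filter on low counts, 9 with the replicate block and 1 without both null-labelled pools numbered 1. It was 3 with limma-voom and 3 with only the groups compared, and ran from 0 to 3 on leaving out 1 library. At E14.5 the count of 0 became 3 with DESeq2, 5 without the filter and 5 with the replicate block, and ran from 0 to 3 on leaving out 1 library. In the mean of both stages the count of 5 became 10 with DESeq2, 11 without the filter, 13 with the replicate block and 2 without both null-labelled pools numbered 1, and ran from 2 to 9 on leaving out 1 library. Between stages in controls the count of 0 became 8 with DESeq2, 12 without the filter, 2 with only the groups compared, 3 without both null-labelled pools numbered 1 and 9 with the replicate block, and ran from 0 to 9 on leaving out 1 library. For that comparison the replicate block paired same-numbered E13.5 and E14.5 pools within each label. In controls these pairs correlated at 0.3, 0.04 and 0.16, so the pair numbered 2 lay below the limit of 0.1. The difference between stages gave 0 in every fit and every left-out library. The share of all genes called moved with these counts. At E13.5 it was 0.307% in the main test, 1.31% with DESeq2, 1.37% without the filter and 3% with the replicate block. It was 0.355% with limma-voom and 1.1% with only the groups compared at that stage. At E14.5 it was 0.111% in the main test, 1.63% with DESeq2, 1.64% without the filter and 2.46% with the replicate block. In the mean of both stages it was 1.87% in the main test, 3.82% with DESeq2, 2.88% without the filter, 5.83% with the replicate block and 0.499% without both null-labelled pools numbered 1. Between stages it was 1.12% in the main test, 5.77% with DESeq2, 3.87% without the filter, 1.93% with only the groups compared and 7.34% with the block. On leaving out 1 control pool, the share ran from 0.0746 to 0.683% at E13.5 and from 0.0106 to 1.38% at E14.5. It ran from 0.879 to 3.62% in the mean of both stages and from 0 to 6.45% between stages. The cause of these changes was not tested. Members at a few CPM, such as Cdh13, Cdh18 and Cdh19, rest on few reads per library, and groups of 2 and 3 pools limit every call.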
